A study of Mus musculus with 6 samples.

Results

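The interferon-stimulated genes and nucleic acid sensors are a set of 39 mouse genes taken by symbol from the 54532 genes of the deposited table, in which each of the 39 symbols was found once. Of these, 29 held enough reads to be tested, meaning at least 10 reads in at least 3 libraries and at least 15 in all, and 10 did not. Polyadenylated RNA was sequenced from cultured mouse ovarian granulosa cells of genotype WT, the somatic cells that surround the oocyte. The groups were cells exposed to cyclophosphamide for 24 h (3 libraries) and cells given no treatment (3 libraries). Cyclophosphamide is an alkylating prodrug used in chemotherapy, and the study used it on cultured cells to model premature ovarian failure. The treatment label of the exposed samples names intraperitoneal injection, whereas the protocol and the design text have the drug added to cells in culture, and culture is taken here. No source used here gives the animals' age, the dose or the number of cultures behind the libraries, and none says whether the cells were primary or a line, so the p-values measure only the spread between these libraries, which may be technical.

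Depth was 16689902, 17275338 and 16715499 reads in the cyclophosphamide libraries and 16458385, 17607586 and 17334754 reads in the untreated libraries. The granulosa label was checked against 8 markers. Foxl2, Fshr, Inha, Inhba, Nr5a2 and Hsd17b1 were all lower with cyclophosphamide, with log2 fold changes of -0.45 for Foxl2 to -2.67 for Inhba and adjusted p of 0.0030 or less (limma). The 8 markers summed to 1980 to 2390 CPM, the read count scaled to library depth, with cyclophosphamide and 6920 to 7020 without. That sum came mostly from Inha, at 68647 reads with cyclophosphamide and 148488 without, and Inhba, at 29766 and 185969. Cyp19a1, the aromatase gene that defines oestrogen-making granulosa cells, held 1 read in the cyclophosphamide libraries and 3 in the untreated libraries, and Amh also held too few reads to be tested. In bulk RNA, fewer cells of a type and less RNA per cell cannot be told apart.

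Type I interferons bind a receptor made of IFNAR1 and IFNAR2, whose kinases JAK1 and TYK2 activate STAT proteins. With IRF9, STAT2 forms part of the complex ISGF3, which binds the interferon-stimulated response element (ISRE) in the promoters of antiviral genes. Upstream, RIG-I (Ddx58) and MDA5 (Ifih1) detect viral or misplaced RNA and signal through MAVS, while cGAS (Mb21d1) detects DNA in the cytosol and signals through STING (Tmem173), and both routes activate IRF3 and IRF7. Nuclear or mitochondrial DNA that reaches the cytosol can engage cGAS.

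The ISRE was looked for in the promoters first, as the sequence by which the set is commonly recognised. The core, which is GAAA, any 2 bases and GAAA again, was searched on both strands in the 250 bases before each annotated start in RefSeq (build GRCm38.p6), and overlapping matches were counted separately. Of the 39 members 31 had a promoter in that table, under the symbol Cgas for Mb21d1. Mx1, Mx2, Oas2, Usp18, Dhx58, Ifi27, Zbp1 and Tmem173 had none. The core was present in 12 of the 31 (38.7%) and in 936 of all 27025 genes with a promoter (3.46%). It was present in 5 of 6 matched members under the read filter, in 5 of 12 that were lower with cyclophosphamide, in 1 of 8 that were higher and in 1 of 5 that did not pass the threshold. A match is a description of letters and not of a bound site. The members were chosen as interferon genes, so their share of the core is not independent of the choice. The shorter GAS word TTCNNNGAA, which is its own reverse complement, was present in 7 of the 31 members (22.6%) and in 8.13% of all genes.

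The promoters below are those of 3 of the 5 members that fell and hold the core (Gbp3, Bst2 and Ifitm2; Gbp2 and Stat2 are not shown), those of the low-read neighbours Ifit1 and Ifit3, and those of Oasl2 and Oasl1, the members that rose most, where the core was not found in this window. Irf2, the member that rose and holds the core, is not shown. Each runs 5′ to 3′ on the gene's strand and ends at the base before the start, and capitals mark the core or its reverse complement, TTTC, any 2 bases and TTTC. The windows are chr3:142559794-142560043 (plus strand) for Gbp3, chr8:71537473-71537722 (minus) for Bst2 and chr7:140955962-140956211 (minus) for Ifitm2. Those of the others are chr19:34640639-34640888 for Ifit1, chr19:34583279-34583528 for Ifit3, chr5:114896684-114896933 for Oasl2 and chr5:114922990-114923239 for Oasl1, all on the plus strand. For Gbp3, which has a second annotated start, the first is shown.
Gbp3: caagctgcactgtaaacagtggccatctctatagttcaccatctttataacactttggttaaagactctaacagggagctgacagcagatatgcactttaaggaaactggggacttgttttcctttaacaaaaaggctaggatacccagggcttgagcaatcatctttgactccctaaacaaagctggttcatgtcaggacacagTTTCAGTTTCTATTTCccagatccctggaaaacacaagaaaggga
Bst2: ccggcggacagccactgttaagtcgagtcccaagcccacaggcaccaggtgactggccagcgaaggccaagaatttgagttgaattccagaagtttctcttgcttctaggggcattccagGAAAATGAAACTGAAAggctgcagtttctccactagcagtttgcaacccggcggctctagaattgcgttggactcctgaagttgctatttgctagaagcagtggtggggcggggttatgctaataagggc
Ifitm2: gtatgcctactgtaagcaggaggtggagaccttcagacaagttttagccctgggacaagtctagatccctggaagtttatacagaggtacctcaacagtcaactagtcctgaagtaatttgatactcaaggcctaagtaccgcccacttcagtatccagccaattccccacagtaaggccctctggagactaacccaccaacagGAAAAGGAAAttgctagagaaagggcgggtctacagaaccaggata
Ifit1: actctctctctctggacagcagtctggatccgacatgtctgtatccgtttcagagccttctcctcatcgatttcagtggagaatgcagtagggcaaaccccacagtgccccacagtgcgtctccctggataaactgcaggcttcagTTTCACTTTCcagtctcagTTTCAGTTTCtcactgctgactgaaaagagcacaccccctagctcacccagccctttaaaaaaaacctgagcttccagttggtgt
Ifit3: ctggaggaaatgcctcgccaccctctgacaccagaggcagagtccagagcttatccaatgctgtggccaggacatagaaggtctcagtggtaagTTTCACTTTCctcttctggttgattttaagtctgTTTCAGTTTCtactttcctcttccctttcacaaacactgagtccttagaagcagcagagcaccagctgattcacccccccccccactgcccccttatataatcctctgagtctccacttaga
Oasl2: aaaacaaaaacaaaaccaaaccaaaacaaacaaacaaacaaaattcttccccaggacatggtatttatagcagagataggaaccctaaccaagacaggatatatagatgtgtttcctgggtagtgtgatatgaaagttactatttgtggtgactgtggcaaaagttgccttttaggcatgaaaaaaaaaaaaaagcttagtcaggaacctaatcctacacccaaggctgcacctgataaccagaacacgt
Oasl1: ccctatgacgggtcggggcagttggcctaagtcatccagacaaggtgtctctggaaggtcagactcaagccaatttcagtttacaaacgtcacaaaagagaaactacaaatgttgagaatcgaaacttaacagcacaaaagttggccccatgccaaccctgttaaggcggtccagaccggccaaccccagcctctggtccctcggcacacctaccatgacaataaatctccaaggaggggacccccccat

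More members fell than rose with cyclophosphamide. Of the 29 tested, 15 were lower, 8 were higher and 6 did not pass the threshold (limma on log2(FPKM + 0.1), Benjamini-Hochberg adjusted p under 0.05 over all 14885 genes tested). FPKM are reads divided by gene length and by a library size, which here was near the summed reads but not equal to them. Every fold change here is cyclophosphamide over untreated on the log2(FPKM + 0.1) scale, on which changes of low genes come out too small. Over all genes tested the same rule called 35.8% lower, 33.1% higher and 68.9% in either direction, so a change in most members is near what the whole transcriptome showed. The median log2 fold change was -0.62 over the 29 members and -0.02 over all genes. At least 2-fold changes were found for 7 members lower and 5 higher, against 16.6% lower and 10.0% higher over all genes. In 24 of the 29 the values of the groups did not overlap, as in 73.1% of all genes tested. Usp18 and Gbp3 reached the read filter through the untreated libraries alone, so they could enter only by being higher there, and these counts are a description of the set and not support for its direction.

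**Figure D1:**
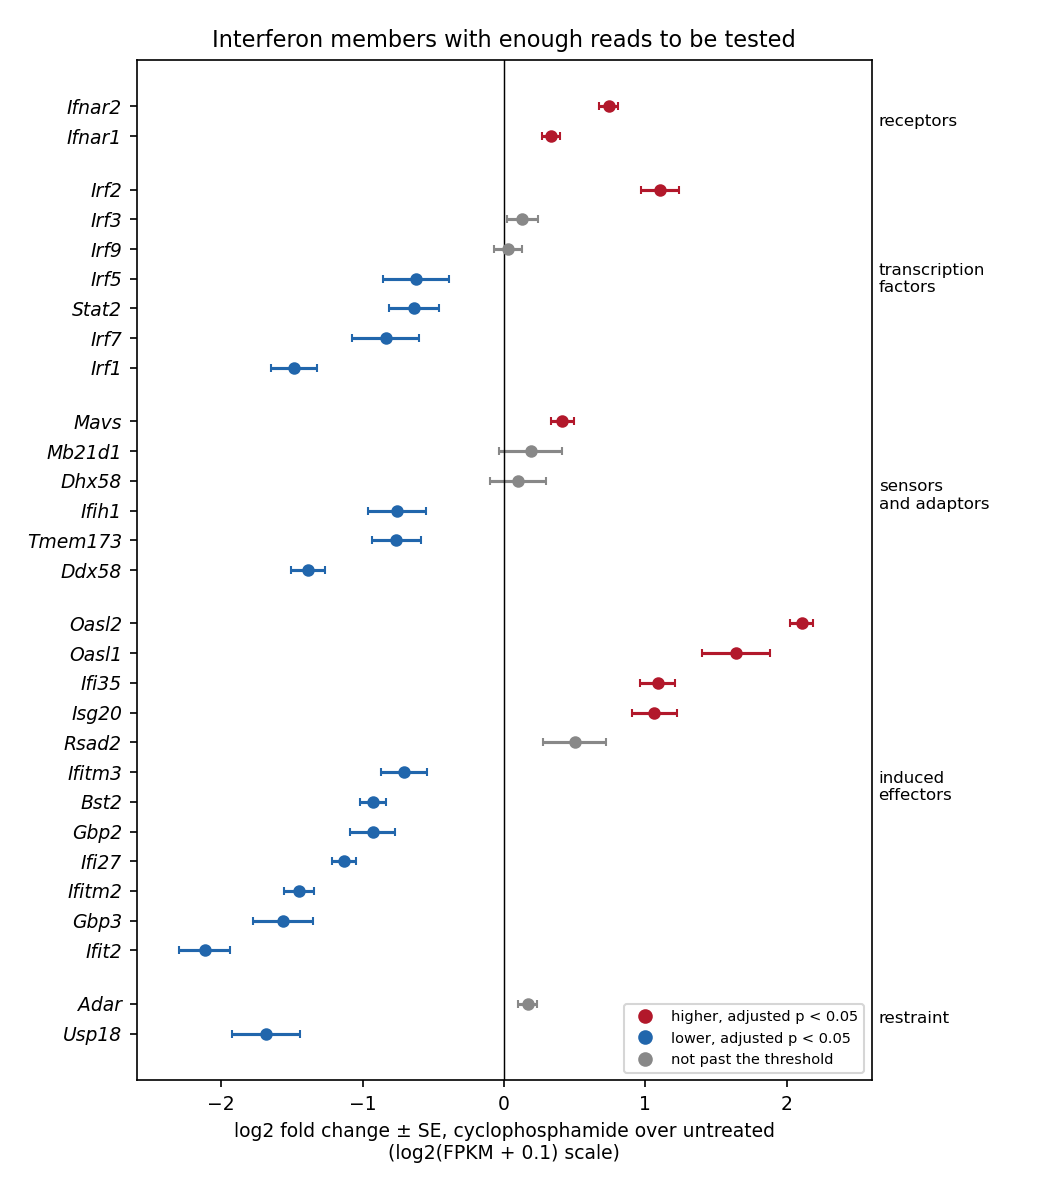
Log2 fold change (x axis, cyclophosphamide over untreated, log2(FPKM + 0.1) scale) of the 29 members tested, 1 per row and grouped by role, with bars for the moderated standard error of 3 against 3 libraries. Both receptor subunits lie right of 0, and the effectors run from 2.10 for Oasl2 to -2.12 for Ifit2.

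Levels of the set were low apart from a few genes. The mean was under 1 FPKM for 21 of the 39 members in the cyclophosphamide libraries and for 16 in the untreated libraries, and at least 10 FPKM for 9 members with cyclophosphamide and 8 without. The members together took 0.0845% to 0.0938% of reads in the cyclophosphamide libraries and 0.0731% to 0.0780% in the untreated libraries. That higher share came with Oasl2, which supplied 23.4% to 26.8% of the members' reads with cyclophosphamide and 6.24% to 7.21% without. Leaving Oasl2 out, the shares overlapped, at 0.0647% to 0.0687% with cyclophosphamide and 0.0678% to 0.0732% without.

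Transcripts of the interferon genes looked up were all but absent, and other interferon genes were not looked up. Of 8 ligand genes looked up (Ifnb1, Ifna2, Ifna4, Ifne, Ifnk, Ifng, Ifnl2 and Ifnl3), only Ifnk held any read, 1 in the cyclophosphamide libraries and 2 in the untreated libraries. A count of 0 over a group allows up to 0.059 CPM with cyclophosphamide and 0.058 without, at 3 reads in the group's summed depth, and this covers counting error only. Interferon transcripts below that limit were not detectable at this depth.

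Both subunits of the type I interferon receptor rose. Ifnar2 (ENSMUSG00000022971), the subunit that holds the signalling tail for STAT2, had 15.9, 17.6 and 17.5 FPKM in the cyclophosphamide libraries, against 9.80, 10.0 and 10.6 FPKM in the untreated libraries. Its log2 fold change, called a log2 ratio below, was 0.74 ± 0.07 (SE, limma, adjusted p = 4.4e-05). Ifnar1, the partner subunit that brings TYK2, had 30.2, 32.6 and 31.7 FPKM with cyclophosphamide, against 23.8, 24.8 and 26.3 FPKM without (log2 fold change 0.34 ± 0.06, limma, adjusted p = 0.0019). For both genes every cyclophosphamide library lay above every untreated one.

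Among the transcription factors, 4 of 7 fell and 1 rose, beside 35.8% lower and 33.1% higher over all genes. Irf1, an activator induced by interferons and by inflammatory signals, had 0.764, 0.884 and 0.946 FPKM in the cyclophosphamide libraries, against 3.11, 2.51 and 2.25 FPKM in the untreated libraries. Irf2, which binds the same element and restrains IRF1, had 4.63, 4.28 and 4.26 FPKM with cyclophosphamide, against 2.23, 2.09 and 1.68 FPKM without. In FPKM, Irf1 lay above Irf2 in each untreated library and Irf2 above Irf1 in each cyclophosphamide library. The untreated order rests on the gene lengths used, 3976 bases for Irf1 and 7396 for Irf2. In reads, Irf2 was above Irf1 in the untreated libraries too, at 270, 270 and 210 against 202, 174 and 151. For Irf1 the log2 fold change was -1.49 ± 0.16 (SE, limma, adjusted p = 9.8e-05) and for Irf2 it was 1.10 ± 0.13 (limma, adjusted p = 0.00015).

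Of the factors that carry or amplify the interferon signal, Stat2 and Irf7 fell and Irf9 did not pass the threshold. Stat2, the ISGF3 subunit, averaged 1.85 ± 0.45 FPKM with cyclophosphamide and 2.88 ± 0.02 FPKM without (SD, n = 3 each), a log2 ratio of -0.64 ± 0.18 (SE, limma, adjusted p = 0.012). Irf9, its DNA-binding partner, had 3.63, 3.65 and 4.01 FPKM with cyclophosphamide, against 3.52, 3.78 and 3.77 FPKM without, and the groups overlapped (log2 fold change 0.03 ± 0.10, limma, adjusted p = 0.82). Irf7, which amplifies interferon production, had a log2 ratio of -0.84 ± 0.24 (limma, adjusted p = 0.013), on 31 to 86 reads a library. That call was lost without the read filter (adjusted p = 0.058) and without untreated replicate 2, where the value was -0.70 (adjusted p = 0.051), and its adjusted p ran from 0.0039 to 0.058 over the 15 alternatives.

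Irf3, the latent factor that TBK1 activates, was the most abundant of the 7. It had 12.2, 12.0 and 11.3 FPKM in the cyclophosphamide libraries, against 9.33, 12.6 and 10.8 FPKM in the untreated libraries, and the groups overlapped (log2 fold change 0.13 ± 0.11, limma, adjusted p = 0.32). Irf5, which acts downstream of Toll-like receptors, had a log2 ratio of -0.62 ± 0.23 (limma, adjusted p = 0.042), and the call was lost in 8 of 15 alternatives, where adjusted p reached 0.13. Leaving out 1 library ended it for untreated replicate 1 (-0.59), untreated replicate 2 (-0.55), cyclophosphamide replicate 2 (-0.39) and cyclophosphamide replicate 3 (-0.72). No source used here gives the strand setting of the counting, and the 257 reads of Irf5 lie beside Tnpo3, an overlapping gene on the other strand with 11453 reads. Irf7 and Irf3 also overlap genes on the other strand, Phrf1 and Bcl2l12, and Irf9 overlaps Rnf31 on its own strand over 123 bases, so reads of these factors are uncertain to that extent.

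Of 6 tested genes of nucleic acid sensing 3 fell, 1 rose and 2 did not pass the threshold. Over all genes 35.8% were lower and 33.1% higher. The RNA sensors Ddx58 and Ifih1 fell, and their adaptor Mavs rose. Ddx58 (RIG-I), which detects short RNA with a 5′ triphosphate, had 1.67, 1.37 and 1.41 FPKM in the cyclophosphamide libraries, against 3.91, 4.09 and 4.10 FPKM in the untreated libraries. With a log2 ratio of -1.39 ± 0.12 (limma, adjusted p = 2.7e-05) it fell, and the groups lay far apart relative to their spread. Ifih1 (MDA5), which detects long double-stranded RNA, averaged 0.614 ± 0.035 FPKM with cyclophosphamide and 1.13 ± 0.32 FPKM without (SD, n = 3 each), a log2 ratio of -0.75 ± 0.21 (SE, limma, adjusted p = 0.011). This call was lost without the read filter, at adjusted p = 0.053, the highest of its 15 alternatives, of which the lowest was 0.0031. Mavs, the mitochondrial adaptor of both sensors, had 21.0, 20.4 and 21.9 FPKM with cyclophosphamide, against 16.04, 14.2 and 17.3 FPKM without (log2 fold change 0.41 ± 0.08, limma, adjusted p = 0.0025). Dhx58 (LGP2), which modulates the sensors, held 38 reads with cyclophosphamide and 33 without, and did not pass the threshold (log2 fold change 0.10 ± 0.20, limma, adjusted p = 0.67).

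On the DNA route, the adaptor fell and the sensor did not pass the threshold. Tmem173 (STING) had 1.003, 0.872 and 1.21 FPKM in the cyclophosphamide libraries, against 2.07, 1.82 and 1.54 FPKM in the untreated libraries, with no overlap. Its log2 fold change was -0.76 ± 0.17 (limma, adjusted p = 0.0048). Mb21d1 (cGAS) had 0.368, 0.338 and 0.281 FPKM with cyclophosphamide, against 0.311, 0.347 and 0.186 FPKM without, so the groups overlapped (log2 fold change 0.19 ± 0.22, limma, adjusted p = 0.47). Zbp1, a sensor of nucleic acids in the Z form, held 2 reads with cyclophosphamide and 4 without.

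The induced effectors split into a larger group that fell and a smaller one that rose. Of 12 tested, 7 fell, 4 rose and Rsad2 did not pass the threshold, beside 35.8% lower and 33.1% higher among all genes tested. The median of the 12 log2 fold changes was -0.82. Gbp3, counted among the 7, reached the read filter through the untreated libraries alone and could enter only by being higher there. The counts describe these effectors and are not support for a direction. Among these 12, Oasl2 had the highest value and, at a pseudocount of 0.1, Ifit2 the lowest.

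Oasl2 (ENSMUSG00000029561), a 2′-5′-oligoadenylate synthetase-like protein that in mouse keeps the enzyme's activity, had 31.4, 38.0 and 34.5 FPKM in the cyclophosphamide libraries, against 8.33, 7.70 and 7.82 FPKM in the untreated libraries. Its log2 fold change was 2.10 ± 0.08 (limma, adjusted p = 9.2e-07), and between 1.99 and 2.20 over the 15 alternatives. Oasl1, its neighbour on chromosome 5, lacks synthetase activity and in mouse restrains the translation of Irf7. Oasl1 had 1.37, 1.50 and 1.89 FPKM with cyclophosphamide, against 0.282, 0.549 and 0.522 FPKM without, a log2 ratio of 1.64 ± 0.24 (limma, adjusted p = 0.00047). Neither gene's groups overlapped. Of the classical synthetases Oas1a held 2 reads in each group and Oas2 held 1 in each, too few to compare.

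Isg20 and Ifi35 also rose. Isg20, an exonuclease that degrades RNA, had 5.35, 6.03 and 4.26 FPKM in the cyclophosphamide libraries, against 2.40, 2.80 and 2.10 FPKM in the untreated libraries (log2 fold change 1.06 ± 0.16, limma, adjusted p = 0.00053). Ifi35, a leucine zipper protein that pairs with NMI, had 6.79, 8.85 and 7.64 FPKM with cyclophosphamide, against 3.86, 3.68 and 3.22 FPKM without (log2 fold change 1.09 ± 0.12, limma, adjusted p = 0.00011). In both, each cyclophosphamide library exceeded each untreated one. Rsad2 (viperin), which makes a chain-terminating nucleotide, had 0.364, 0.669 and 0.601 FPKM with cyclophosphamide, against 0.381, 0.330 and 0.328 FPKM without (log2 fold change 0.50 ± 0.22, limma, adjusted p = 0.079). Cyclophosphamide replicate 1 was the library that overlapped, and without it Rsad2 was higher by 0.72 (adjusted p = 0.010), with adjusted p between 0.010 and 0.25 over the alternatives.

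Ifit2 (ENSMUSG00000045932) had the lowest log2 fold change of the members at a pseudocount of 0.1, whereas Gbp3, described below, was lower in limma-voom. This tetratricopeptide repeat protein binds RNA and limits its translation. It had 0.448, 0.426 and 0.280 FPKM in the cyclophosphamide libraries, against 1.93, 2.04 and 1.96 FPKM in the untreated libraries, on 78 reads and 394 reads in all. The log2 fold change was -2.12 ± 0.18 (limma, adjusted p = 2.6e-05). At such levels its size depends on the pseudocount and the method, with -1.11 at a pseudocount of 1 and -2.37 in limma-voom.

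The effectors with a mean of at least 10 FPKM in both groups were Bst2, Ifitm2, Ifitm3 and Ifi27, which are membrane proteins. They are grouped here for their level, after their values were seen, and each fell. The cut leaves out Oasl2, which rose, with a mean of 34.6 FPKM with cyclophosphamide and 7.95 FPKM without. Bst2 (tetherin), which holds budding virions at the cell surface, had 66.1, 63.5 and 60.7 FPKM in the cyclophosphamide libraries, against 107.6, 134.9 and 121.1 FPKM in the untreated libraries. It was the highest member in both groups and fell, at a log2 ratio of -0.93 ± 0.09 (limma, adjusted p = 5.3e-05). Ifitm2, which blocks virus entry at endosomal membranes, had 30.6, 23.8 and 28.5 FPKM with cyclophosphamide, against 73.3, 82.9 and 70.3 FPKM without, a log2 ratio of -1.45 ± 0.11 (limma, adjusted p = 1.2e-05). Its relative Ifitm3 was at -0.71 ± 0.16 (limma, adjusted p = 0.0048), with means of 12.5 ± 1.74 FPKM with cyclophosphamide and 20.6 ± 4.41 FPKM without (SD, n = 3 each). Whether the fall of the pair differed was not tested, and reads of these similar genes may be split between copies. Ifi27, a small hydrophobic protein of inner membranes, had 19.6, 20.4 and 17.95 FPKM with cyclophosphamide, against 39.8, 47.1 and 40.5 FPKM without (log2 fold change -1.13 ± 0.08, limma, adjusted p = 1.3e-05).

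Gbp2 and Gbp3, guanylate-binding proteins of a GTPase family that attacks the vacuoles of intracellular pathogens, fell as well. Gbp2 averaged 0.878 ± 0.055 FPKM with cyclophosphamide and 1.78 ± 0.29 FPKM without (SD, n = 3 each), a log2 ratio of -0.93 ± 0.16 (SE, limma, adjusted p = 0.0010). Gbp3 held 0, 0 and 2 reads in the libraries with cyclophosphamide, against 10 to 15 reads a library without, 38 in all. The ratio of reads per depth was 0.053, with an exact 95% counting interval of 0.0062 to 0.21. Its fitted log2 fold change, -1.56 in the test (limma, adjusted p = 0.00032), ranged from -0.28 at a pseudocount of 1 to -3.96 in limma-voom, so its size depends on the pseudocount and the method. Gbp7, a relative from the wider list given below, had 0.671, 0.666 and 0.577 FPKM with cyclophosphamide, against 0.338, 0.592 and 0.411 FPKM without, and did not pass the threshold (log2 fold change 0.46 ± 0.21, limma, adjusted p = 0.082). It was called higher in 2 of 15 alternatives, with adjusted p between 0.025 and 0.26 over them.

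**Figure D2:**
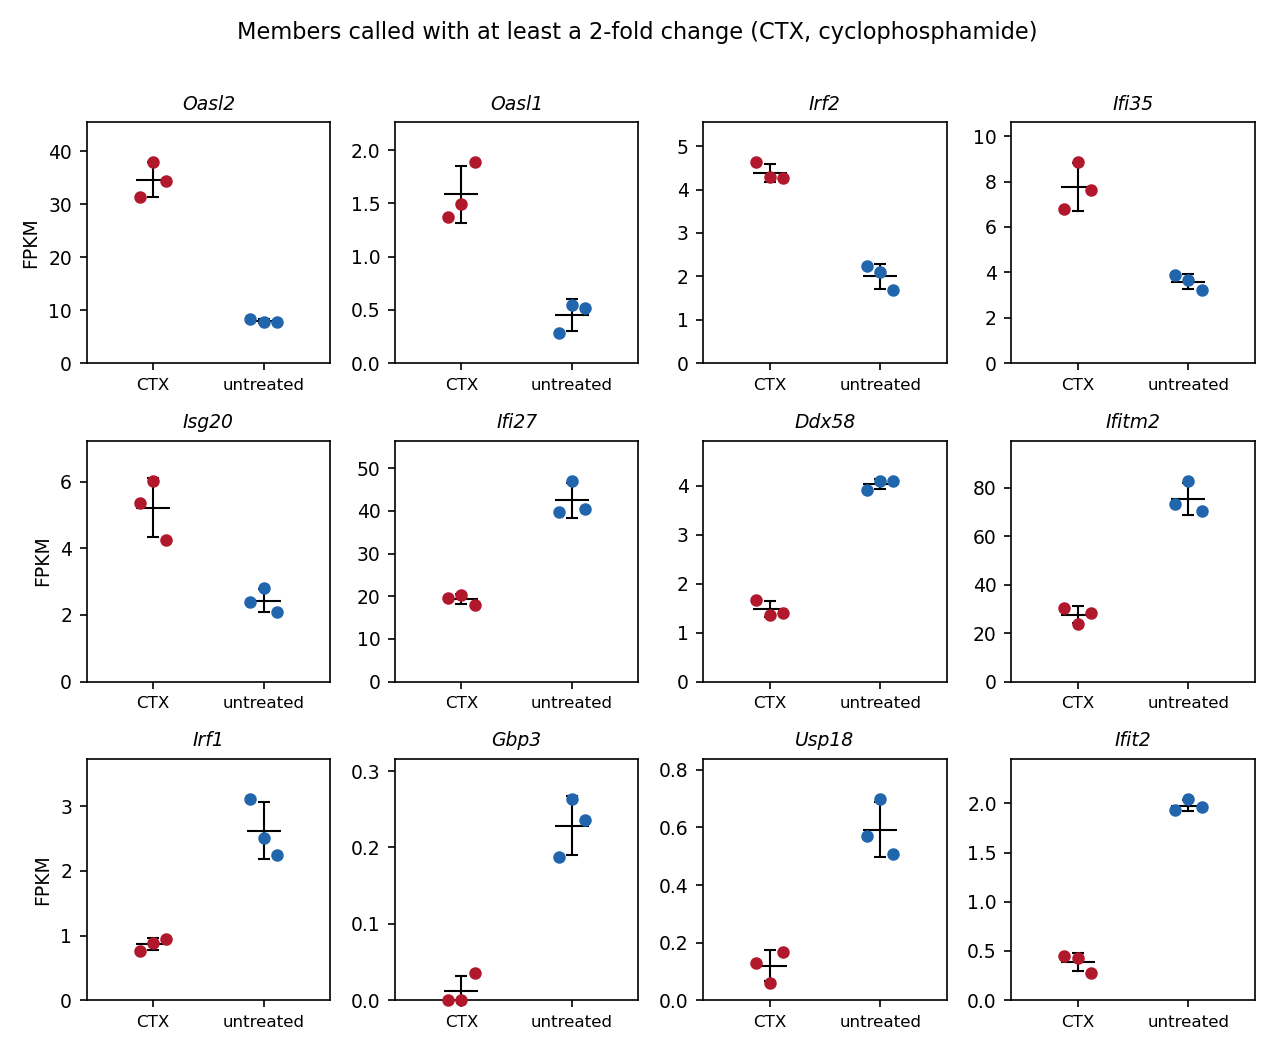
FPKM (y axis, from 0, a scale for each panel) in each of the 3 cyclophosphamide libraries (CTX, red) and 3 untreated libraries (blue) for the 12 members that passed the threshold with at least a 2-fold change, with bars for the mean and SD. In none of the 12 panels do the groups overlap, and Gbp3 and Usp18 lie under 1 FPKM in both groups.

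Of the 2 genes that restrain the response, Usp18 fell and Adar did not pass the threshold. Usp18, which removes ISG15 from proteins and blocks signalling at IFNAR2, had 0.131, 0.060 and 0.166 FPKM in the cyclophosphamide libraries, against 0.570, 0.698 and 0.509 FPKM in the untreated libraries. It rests on 17 reads and 84 reads, and its log2 fold change of -1.68 ± 0.24 (limma, adjusted p = 0.00038) lay between -2.32 in limma-voom and -0.51 at a pseudocount of 1. Adar, which edits adenosine to inosine in double-stranded RNA and so keeps cellular RNA from the sensors, had 7.90, 8.12 and 8.21 FPKM with cyclophosphamide, against 7.05, 7.13 and 7.37 FPKM without. The groups did not overlap, the log2 fold change was 0.17 ± 0.07, and it missed the threshold (limma, adjusted p = 0.062). Adar was called higher in 4 of 15 alternatives, which were limma-voom and the 3 other scalings, with adjusted p between 0.012 and 0.17 over all of them. It overlaps Chrnb2 on the other strand, which held 507 reads with cyclophosphamide and 80 without, beside 3388 and 2957 reads of Adar.

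Pseudocounts moved the size of other low members too. At a pseudocount of 1 the log2 fold changes were -0.95 for Irf1, -0.56 for Gbp2, -0.42 for Irf7, -0.47 for Tmem173, -0.39 for Ifih1, -0.31 for Irf5 and 0.83 for Oasl1, each smaller by over 1.5 times, with the calls kept.

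The 10 members under the read filter include widely used interferon markers, Isg15 and Ifit1 among them. Isg15, the ubiquitin-like modifier, held 9, 7 and 2 reads in the cyclophosphamide libraries, against 13, 7 and 16 reads in the untreated libraries. Ifit1, which binds RNA lacking the cap's ribose methylation, held 2, 5 and 4 reads with cyclophosphamide, against 5, 13 and 11 reads without. Ifi44, a cytoplasmic protein induced by interferon, held 10 reads with cyclophosphamide and 29 without, with a higher count in each untreated library. Ifit3, a partner of IFIT1, held 0, 1 and 1 reads with cyclophosphamide, against 13, 2 and 9 reads without, a ratio of 0.085 with an exact 95% counting interval of 0.0097 to 0.34. That interval covers counting error only, and the untreated libraries themselves ranged from 2 to 13 reads. The summed depths were 50680739 reads with cyclophosphamide and 51400725 without, so reads can be set side by side.

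The remaining low members showed no common direction. Mx2, annotated as a polymorphic pseudogene, held 24 reads with cyclophosphamide and 19 without, and Mx1, its antiviral GTPase relative, held 2 in each group. Cxcl10, a chemokine that draws T cells, held 10, 1 and 4 reads in the cyclophosphamide libraries, against 0, 4 and 1 reads in the untreated libraries, so 1 library supplied most of its reads. A difference in Mx1, Mx2, Oas1a, Oas2, Zbp1 and Cxcl10 was not detectable at this depth.

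**Figure D3:**
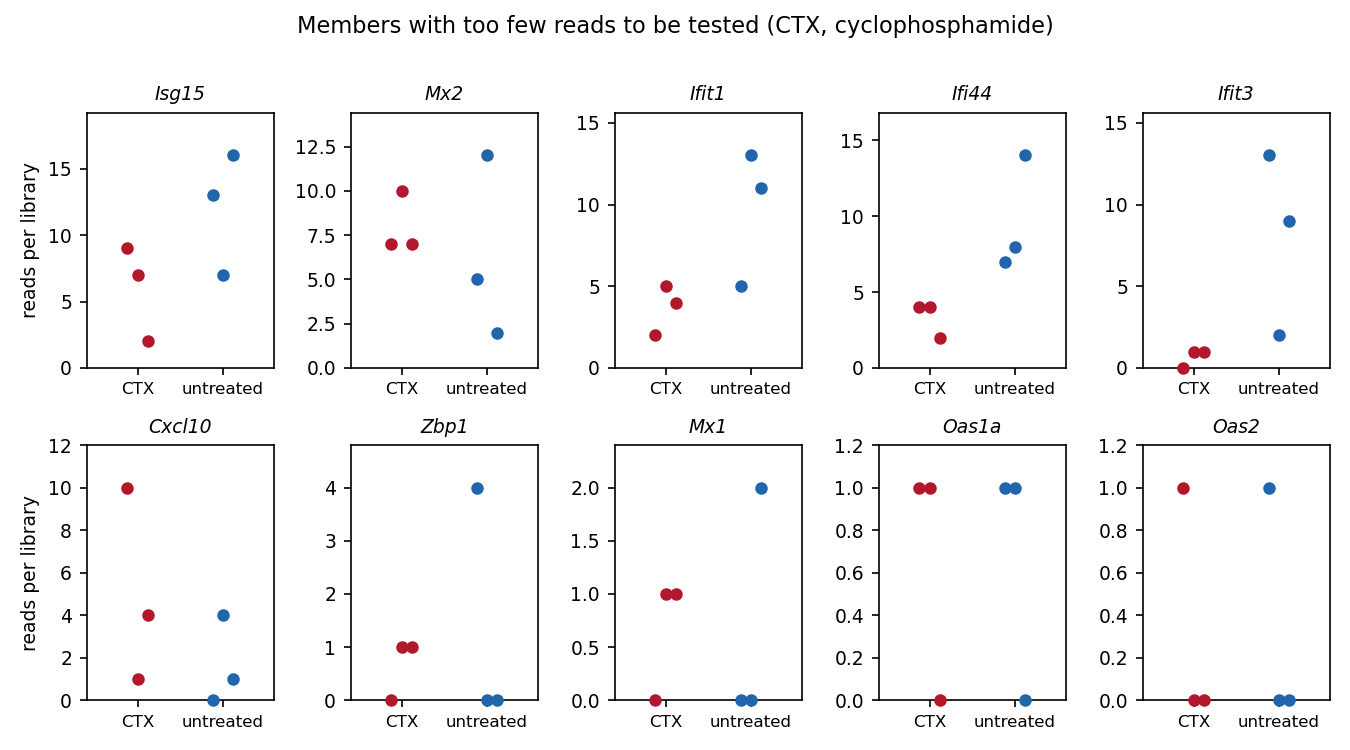
Reads per library (y axis, from 0, a scale for each panel) of the 10 members with too few reads to be tested, in 3 cyclophosphamide libraries (CTX, red) and 3 untreated libraries (blue). Each point is 1 library, no library exceeds 16 reads, and the groups overlap in all panels but those of Ifi44 and Ifit3, and of Ifit1, where the highest cyclophosphamide library and the lowest untreated library both hold 5 reads.

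Other genes of the pathway were looked up from a list of 94, of which 65 were tested, 30 were lower and 21 higher, with a median log2 fold change of -0.23, beside 35.8% lower and 33.1% higher over all genes. Tlr4, Enpp1, Oas1c, Cmpk2, Parp14, Trim30a and Rtp4 reached the read filter through the untreated libraries, with 10 reads in at most 1 cyclophosphamide library, so they could hardly enter except by being higher there. All 7 are among the 30, which is a description and not support for a direction. The values given for them are log2 fold changes with their SE. Of 24 further interferon-induced genes tested 16 were lower and 4 higher, and 5 of the 16 (Oas1c, Cmpk2, Parp14, Trim30a and Rtp4) are genes that entered in that way. Irgm2, counted as lower, held its call in 9 of 15 alternatives, and Trim30a in 9 of the 14 that tested it. Pml and Trim21, counted as higher, held theirs in 12 and 13 of 15. The lower ones included the immunity GTPase Irgm1 (-2.44 ± 0.13), the lectin Lgals9 (-2.76 ± 0.14) and Ube2l6, the conjugating enzyme for ISG15 (-2.23 ± 0.22). Genes that clear the cell's own nucleic acids fell in 8 of 9 tested, Enpp1 among them, and rose in 0. Samhd1, a dNTP hydrolase, was at -1.66 ± 0.08, and the RNase H2 subunits Rnaseh2b and Rnaseh2c, which remove ribonucleotides from DNA, were at -1.38 ± 0.20 and -0.68 ± 0.10. Dnase2a, the lysosomal nuclease, was at -1.09 ± 0.16.

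Among genes of sensor signalling more rose than fell. Of 11 tested, 8 rose and 2 fell, beside 33.1% higher and 35.8% lower over all genes. Those that fell were the kinase Ikbke, at -0.74 ± 0.17, and Tlr4, which reached the read filter as described above. The adaptor Myd88 was at 1.32 ± 0.07 and the kinase Tbk1 at 0.84 ± 0.08. The RIG-I ubiquitin ligase Trim25 was at 0.64 ± 0.07 and Pcbp2, a regulator of MAVS, at 0.47 ± 0.07. Among 7 receptor and kinase genes Ifngr1 (0.84 ± 0.08), Il10rb (0.83 ± 0.10) and Jak1 (0.44 ± 0.06) rose and Ifnlr1 (-0.48 ± 0.16) fell. Of 6 tested factors 3 rose, 1 fell by at least 2-fold and 2 did not pass the threshold. Among those that rose, Irf2bp2, a corepressor that binds IRF2, was at 1.81 ± 0.10 and Stat3 at 0.49 ± 0.08. Of 8 tested genes of restraint 3 rose and 2 fell, with Ptpn2, a phosphatase of JAK and STAT proteins, at 0.78 ± 0.08, Trim24 at 0.54 ± 0.10, Tnfaip3 (A20) at -1.56 ± 0.16 and Socs3 at -0.77 ± 0.23. Adjusted p in limma was 0.027 or less for each gene given with its SE here. Of these genes, the call of Ifnlr1 held in 7 of 15 alternatives, that of Socs3 in 13 and those of the others in all 15. Among the sensor signalling genes counted as higher, Traf3 held its call in 9 of 15 and Ifi204 in 10. Usp25, counted as higher among the restraint genes, held its call in 9. At a pseudocount of 1 the changes of Lgals9, Ube2l6, Rnaseh2b, Tnfaip3, Ikbke and Ifnlr1 were smaller by over 1.5 times, at -1.84, -1.34, -0.76, -0.77, -0.38 and -0.29.

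**Figure D4:**
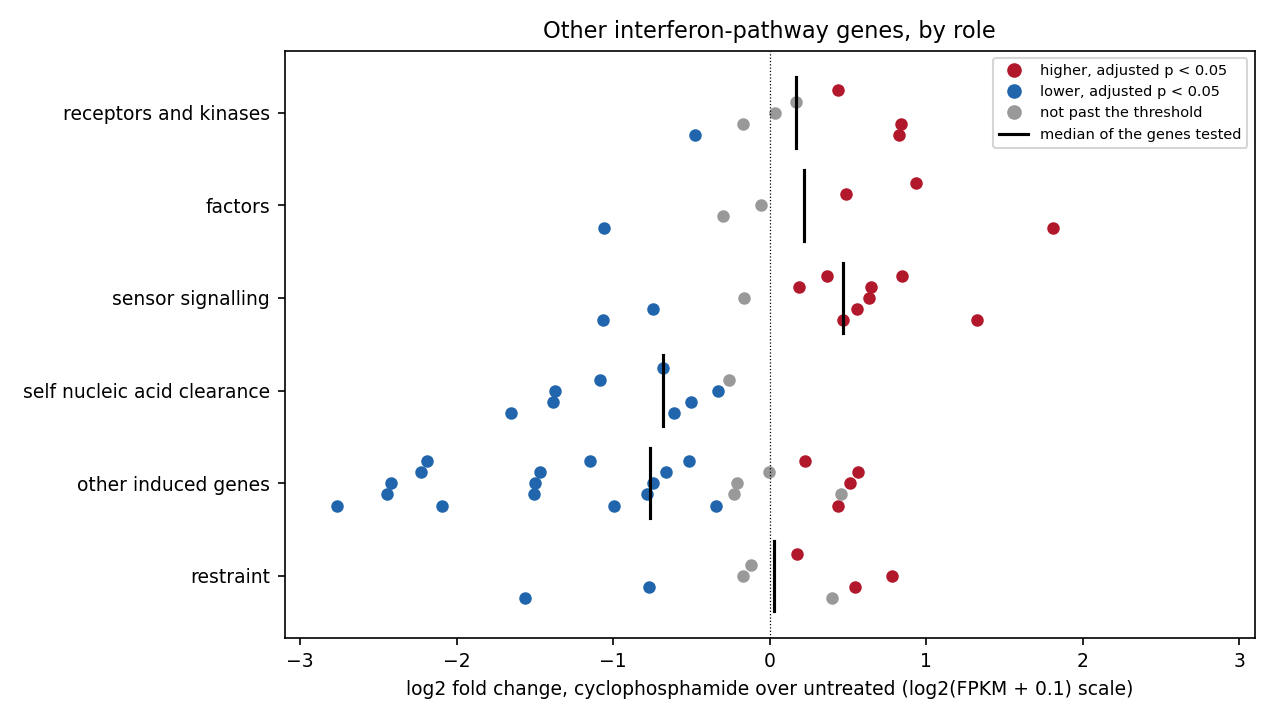
Log2 fold change (x axis, cyclophosphamide over untreated, log2(FPKM + 0.1) scale) of 65 tested genes of the pathway that are not among the 39, 1 point a gene, by role, with a bar for each role's median. Self nucleic acid clearance lies wholly left of 0 with a median of -0.68, other induced genes have a median of -0.76, and sensor signalling has one of 0.47.

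Leukocytes express many of these genes at higher levels than other cells, and their markers were measured in the same libraries. Of 11 macrophage and leukocyte markers none was at 0 in all libraries, and their summed level was 34.9 to 40.0 CPM with cyclophosphamide and 14.8 to 15.3 without. That sum came mostly from Csf1r, Cd14 and Cd68, which rose at log2 ratios of 1.93, 1.32 and 1.08 (limma, adjusted p = 0.00078 or less), while Ptprc held 7 reads with cyclophosphamide and 9 without. C1qa held 2 reads with cyclophosphamide and 10 without, C1qb 1 and 8, and C1qc 4 and 16, and Lyz2 held 101 and 188. Lyz2 was called lower (log2 ratio -0.95, limma, adjusted p = 0.027), and the call was lost with no read filter and without untreated replicate 2, untreated replicate 3 or cyclophosphamide replicate 3. Of 6 lymphocyte and dendritic markers Cd3e and Siglech were among those at 0 in all libraries, and the 6 summed to 0.0598 to 0.289 CPM with cyclophosphamide and 0 to 0.227 without. Other lists moved as well, as 5 surface epithelium markers summed to 85 to 117 CPM with cyclophosphamide and 177 to 201 without, and 5 theca and stroma markers to 69.6 to 76.7 with cyclophosphamide and 196 to 247 without. The theca and stroma sum came mostly from Col1a1 and Col3a1, while Pdgfra held 576 reads with cyclophosphamide and 417 without, and Cyp17a1 8 and 1. The 5 endothelial markers summed to 6.83 to 9.57 CPM with cyclophosphamide and 3.22 to 4.37 without, and the 5 oocyte markers to 6.05 to 7.96 with cyclophosphamide and 1.25 to 1.88 without. Most of the endothelial sum with cyclophosphamide was Esam, at 267 reads against 38 without, while Tek held 46 with cyclophosphamide and 88 without, Cdh5 30 and 38, and Kdr 20 and 18. Most of the oocyte sum with cyclophosphamide was Gdf9, at 253 reads against 41 without. The others were higher too, with Ooep at 78 reads with cyclophosphamide and 34 without. Bmp15 held 11 and 1, all 11 in cyclophosphamide replicate 3, Zp2 held 9 and 0, and Zp3 held 7 and 0. The part of any of these cells in the changes of the interferon genes was not tested.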

How the data were processed

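The deposited table, named as counts, holds FPKM per gene made by the authors, with gene coordinates and lengths. Multiplied by gene length, the values were whole multiples of 1 step in each library (100% within a tolerance of 0.01), so reads per gene were recovered. The library size implied by the step was 0.975 to 0.993 times the summed reads in untreated libraries and 0.987 to 1.038 times with cyclophosphamide. Why these differ was not tested. Scaling to total reads moved the median log2 fold change of all genes tested from -0.021 to 0.023. No source used here gives the gene counter. CASAVA and HISAT2 2.0.5 are named per the submitters' processing notes, which also name the build GRCm39, whereas 98.3% of gene coordinates equal those of GENCODE M21 on GRCm38, the build used for coordinates here. Genes with at least 10 reads in at least 3 libraries and at least 15 in all were tested in limma 3.58.1 (R 4.3.3, trended empirical Bayes, two-sided) on log2(FPKM + 0.1), 3 against 3 libraries with no covariate, with Benjamini-Hochberg adjustment over 14885 genes and a threshold of 0.05. The script was tested on simulated data. All members were described, and of the wider list the 4 genes of each role with the lowest p among those called were named. Some of these are not reported here. The 15 alternatives were limma-voom, 2 other pseudocounts, 2 other filters, 3 other scalings, a replicate block and leaving out each library. Libraries correlated at 0.987 to 0.991 within groups and 0.899 to 0.910 between them. The members and lists were chosen with earlier results of these data known. Counting intervals and floors cover counting error only.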

Additional observations from a re-analysis of the deposited data

How the results depend on the processing

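Over 15 alternatives the 29 tested members gave 432 values, of which 412 kept both direction and side of the threshold, 11 lost the call, 5 gained one and 4 changed sign. The sign changes all came from leaving out a library and from members that did not pass the threshold: over those 6 fits Irf9 ran from -0.02 to 0.05, Dhx58 from -0.01 to 0.23 and Mb21d1 from -0.01 to 0.32. Of the transcription factors 2 were lower with no read filter, against 4, and 2 to 4 when a library was left out. Of the restraint genes 1 (Adar) was higher under limma-voom, total-read, median-of-ratios and upper-quartile scaling, against 0, and 0 were lower under the stricter filter, under which Usp18 was not tested, against 1. The cause was not tested. Over all members, 8 to 9 were higher and 13 to 15 lower when a library was left out, and over all genes 4456 to 4873 were higher and 4820 to 5268 lower. The replicate block gave 8 members higher and 14 lower, having lost Irf5. Deviations of libraries with the same replicate number correlated at -0.0796, 0.00463 and -0.0327, which gave no sign of pairing. With 3 libraries a group such values cannot exclude it, and the labels do not say what the numbers mark. The 10 members under the read filter are limited by depth.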

Other observations

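Several members lie next to each other in the genome, and their values are set side by side here. These groupings were chosen after the values were seen, and reads of similar neighbours may be split between copies. Oasl2 and Oasl1 are 11005 bases apart on chromosome 5 and both rose. Gbp3 and Gbp2, 47392 bases apart on chromosome 3, both fell, as did Ifitm2 and Ifitm3, 53598 bases apart on chromosome 7. On chromosome 16 Ifnar2, Il10rb and Ifnar1 all rose, with log2 fold changes of 0.74, 0.83 and 0.34, whereas Ifngr2, the next receptor gene of the cluster, was at -0.17 ± 0.11 and did not pass the threshold (limma, adjusted p = 0.19). Ifit2 lies 7111 bases from Ifit3 on chromosome 19, and both were lower with cyclophosphamide in reads, at 78 against 394 for Ifit2 and 2 against 24 for Ifit3.

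Genes of ISG15 conjugation are given as values, as they were also picked after the values were seen and 35.8% of all genes were lower. Uba7, the activating enzyme, was at -1.50 ± 0.23 (limma, adjusted p = 0.00059), Ube2l6, the conjugating enzyme, at -2.23 ± 0.22 (adjusted p = 4.9e-05), Herc6, the ligase in mouse, at -1.15 ± 0.19 (adjusted p = 0.00092) and Usp18, the protease, at -1.68 ± 0.24 (adjusted p = 0.00038). Usp18 reached the read filter through the untreated libraries alone. At a pseudocount of 1 the values were -0.78 for Uba7, -1.34 for Ube2l6, -0.44 for Herc6 and -0.51 for Usp18. Isg15 itself held 18 reads with cyclophosphamide and 36 without, with overlapping groups.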
